A study of Mus musculus with 4 samples.

Results

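Regions of open chromatin that were called after trichostatin A (TSA) in young mdx mice and in none of the other libraries were examined in fibro/adipogenic progenitors (FAPs). The regions of the 4 library lists were merged wherever they overlapped or touched, and autosomal merged regions that overlapped the young TSA list alone were kept. This gave 18280 regions, out of 163967 autosomal merged regions and 167247 merged regions on all chromosomes. They are called young TSA-unique regions here, and they were selected on the calls of all 4 libraries. They were 23.5% of the 77787 autosomal merged regions called in young TSA and covered 26.0 Mb, or 18.5% of the 140 Mb covered by the autosomal regions of that list. A further 206 such regions on chromosome X and 1 on chromosome Y lie outside the rule.

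The 4 samples were young and old animals with and without TSA, 1 library each, all from hind limb muscle of C57BL/6 mdx mice, which lack dystrophin and serve as a model of Duchenne muscular dystrophy. The 2 TSA groups received TSA at 0.5 mg per kg per day by daily injection for 15 days, and the 2 control groups received saline. The sources used here do not state the exact ages, the sex or the number of animals behind a library. FAPs were sorted as Sca-1+ cells that lacked α7 integrin, CD31, CD45 and Ter119, so blood, endothelial and satellite cells were selected against. The sort could not be checked against marker genes, because the lists hold no gene values and the coordinates, of build mm9, were not joined to genes.

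FAPs are mesenchymal cells of the muscle interstitium that support regeneration and can turn into fibroblasts or fat cells. Histone deacetylases remove acetyl groups from histones, which favours compact chromatin, and TSA inhibits them. NA-seq reports open chromatin by cutting the DNA of intact nuclei with a restriction enzyme, so a region can be called only where the enzyme has sites. The labels name NlaIII or HpaII for this step without saying which library had which, and HpaII is blocked by methylation of the CpG in its site. Promoters and enhancers are the usual places of open chromatin, and they tend to lie in gene-rich stretches of the genome.

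The lists held 43335 regions in young control, 80122 in young TSA, 97139 in old control and 87416 in old TSA, with no count, score or signal, so the depth behind a call is unknown. A region absent from a list was not called there, which does not show that it was closed. In a bulk library, a region open in few cells and one weakly open in many cannot be told apart. With 1 library per group no difference between groups has an error between animals, and the rule used every call, so no test was made and the values below describe these 4 libraries. Intervals are 95% intervals, exact binomial (Clopper-Pearson) for shares and from order statistics for medians, and cover counting error only.

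Young TSA-unique regions were the third most numerous of the 4 sets called in 1 library only. The counts stood in the order of all autosomal merged regions called in each library. These totals were 93558 in old control, 84248 in old TSA, 77787 in young TSA and 42159 in young control. As a share of its own total, the young TSA set was the lowest of the 4, at 23.5%. The old control had 32787 such regions, old TSA 23577 and young control 10977, so that the young TSA set made up 21.3% (21.1 to 21.6%) of these 85621 regions. Among the remaining regions called in young TSA, 20950 were shared with 1 other library, 23889 with 2 and 14668 with all 3. Every young TSA-unique region was a single region of the young TSA list, and none joined several.

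The young TSA-unique regions were narrow. Their median width was 1300 bp, with quartiles at 1100 and 1800 bp and a maximum of 4800 bp. The distribution had 2 peaks, 1 at the lower limit of the lists and 1 at 1900 bp. At the limit of 1000 bp stood 3959 regions (21.7%, 21.1 to 22.3%), and at 1900 bp 3558 regions (19.5%, 18.9 to 20.0%). Only 518 regions (2.83%) were wider than 1900 bp, and 106 (0.580%) reached 3000 bp. The same 2 peaks appeared in the other sets called in 1 library. The share at 1900 bp or wider was 22.3% (21.7 to 22.9%) in young TSA, 14.9% (14.3 to 15.6%) in young control, 27.2% (26.8 to 27.7%) in old control and 21.2% (20.7 to 21.7%) in old TSA. The median was 1300 bp in young control and old TSA and 1400 bp in old control.

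Regions of young TSA that other libraries shared were wider. Their median merged width was 1900 bp when 1 other library shared them, 2000 bp with 2 and 2500 bp with 3. A merged width spans all the regions joined in it, and a wider region has more chance to meet another, so part of this order follows from the merging. The share at 1000 bp was 2.11% for regions shared with 1 library and 0.121% for those shared with 2. No region called in all 4 libraries was that narrow (0 of 14668, interval up to 0.0251%).

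**Figure D1:**
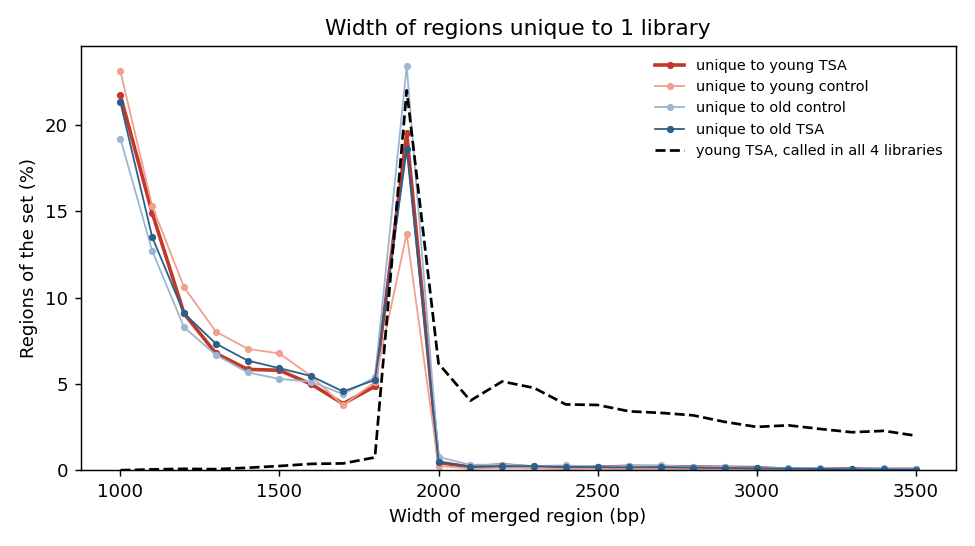
Width of the merged regions (bp, in steps of 100 bp) on the x axis against the percent of the set on the y axis. Solid lines are the regions called in 1 library only and the dashed line is the regions called in all 4; widths above 3500 bp are not drawn. The young TSA-unique regions (thick line) peak at 1000 bp (21.7%) and at 1900 bp (19.5%), while the regions called in all 4 libraries extend above 1900 bp.

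The border of the rule was crossed by small distances. Among the young TSA-unique regions, 380 lay 100 bp from a region of another library, and 1817 lay within 500 bp of one. Just outside the rule, 199 young TSA regions only touched a region of another library, and 211 overlapped other libraries by 100 bp in all. The median width was 1350 bp for the 380 regions just inside and 1400 bp for the 211 just outside. Regions with an overlap of 100 to 500 bp numbered 1225.

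Young TSA-unique regions had a lower median distance to shared regions than the other 3 sets called in 1 library. Shared regions are autosomal merged regions called in at least 2 libraries. There were 78346 of them, and 59507 were called in young TSA. From edge to edge, the median distance of the young TSA-unique regions was 6600 bp (6400 to 6800 bp). The lower quartile was 2300 bp and the upper quartile 17100 bp. Within 1 kb of a shared region lay 2397 (13.1%), within 5 kb 7848 (42.9%), within 10 kb 11271 (61.7%, 60.9 to 62.4%), within 50 kb 17098 (93.5%) and within 100 kb 17963 (98.3%). Measured against the same shared regions, the median distance was 8700 bp (8400 to 9000 bp) for regions unique to young control, 9600 bp (9400 to 9800 bp) for old control and 8700 bp (8500 to 9000 bp) for old TSA. The share within 10 kb was 54.4%, 51.1% and 53.8% in these 3 sets. Such shares were not computed for autosomal positions at large. When each list was limited to regions of its median width and above, 10114 young TSA-unique regions were found, with a median distance of 10300 bp.

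The young TSA set was also closest among regions of equal width. At 1900 bp the median distance was 6000 bp (5800 to 6300 bp) for young TSA-unique regions, 8500 bp for young control, 10100 bp for old control and 8700 bp for old TSA. At 1000 bp it was 7500 bp (7100 to 8000 bp), 9100 bp, 9600 bp and 9400 bp in the same order. The young TSA set had the lowest median distance of the 4 sets on each of the 19 autosomes. Its medians ran from 4800 bp on chromosome 7 to 9200 bp on chromosome 13. On chromosome 16 the gap to the next set was small, with 8300 bp against 8400 bp for old TSA.

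**Figure D2:**
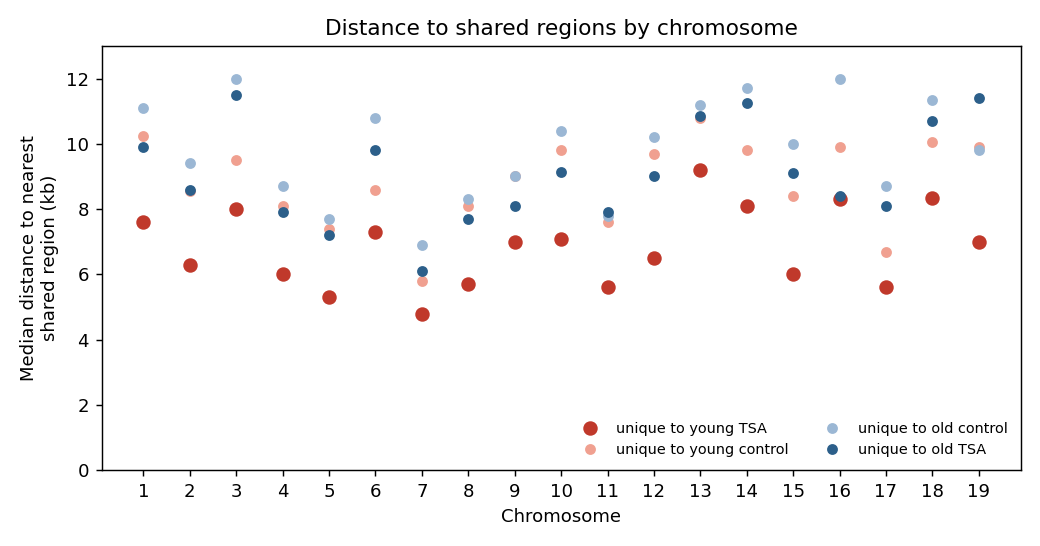
Median distance to the nearest shared region (kb, y axis) by autosome (x axis) for the regions called in 1 library only. Each point is the median over the regions of that set on that chromosome; the young TSA-unique regions (large points) are lowest on all 19 autosomes, from 4800 bp on chromosome 7 to 9200 bp on chromosome 13.

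The distance depended on which shared regions were measured to. Of the shared regions, 59507 were called in young TSA. To the 14668 regions called in all 4 libraries, the median distance was 41900 bp (40600 to 43000 bp) for the young TSA set. It was 54400 bp for young control, 72100 bp for old control and 64300 bp for old TSA. The young TSA set was closest on 18 of the 19 autosomes, and on chromosome 13 the young control set was closer, with 54200 bp against 59600 bp.

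Against shared regions in which young TSA took no part, the sets lay nearer to each other. To the 18839 shared regions not called in young TSA, the median distance was 37400 bp (36600 to 38300 bp) for young TSA-unique regions and 37500 bp (36800 to 38200 bp) for old TSA. It was 39300 bp (38700 to 40100 bp) for old control and 41900 bp (40700 to 43300 bp) for young control. On this measure the young TSA set was closest on 6 autosomes, old TSA on 9, and each control on 2. Against shared regions that lacked another library, most of which were called in young TSA, the young TSA set had the lowest median. It lay 12800 bp from the 47164 shared regions not called in young control, where the other sets stood between 14600 and 16600 bp. It was 33300 bp from those not called in old control and 33200 bp from those not called in old TSA, where the other sets stood between 39200 and 48400 bp.

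The nearest region of a given library was 6100 bp away at the median for old control, 6700 bp for old TSA and 13200 bp for young control, the shortest list. A young control region lay within 1 kb of 1101 young TSA-unique regions (6.02%), an old control region within 1 kb of 2165 (11.8%) and an old TSA region within 1 kb of 1975 (10.8%). The order of these distances follows the lengths of the 3 lists, of 42904, 95128 and 85889 autosomal regions for young control, old control and old TSA.

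The surroundings of the young TSA-unique regions were dense in accessible regions over a wide stretch. Within 50 kb of their centres, shared regions stood at 48.3 per Mb, against 32.5 per Mb over the autosomes, a ratio of 1.49. The ratio was 1.23 around regions unique to young control, 1.16 around old control and 1.24 around old TSA. For regions called in all 4 libraries the ratios were 1.74 around young TSA-unique regions and 1.36, 1.15 and 1.26 around the other 3 sets in the same order. For shared regions not called in young TSA they were 1.20 around the young TSA set, 1.10 around young control, 1.16 around old control and 1.22 around old TSA. No shared region lay within 50 kb for 6.89% of the young TSA-unique regions. This share was 9.34% for young control, 11.8% for old control and 10.3% for old TSA.

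This density changed little with distance in the stretch examined. At 5 kb from the centre, 12.4% of positions on the side of lower coordinates and 12.6% on the other side lay inside a shared region. At 50 kb the values were 11.4% and 11.2%, and shared regions covered 7.31% of the autosomal span. Around the other 3 sets the values at 50 kb lay between 8.67% and 9.46%. Inside about 3 kb the profile falls by construction, since a region that met a shared region would not be unique.

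**Figure D3:**
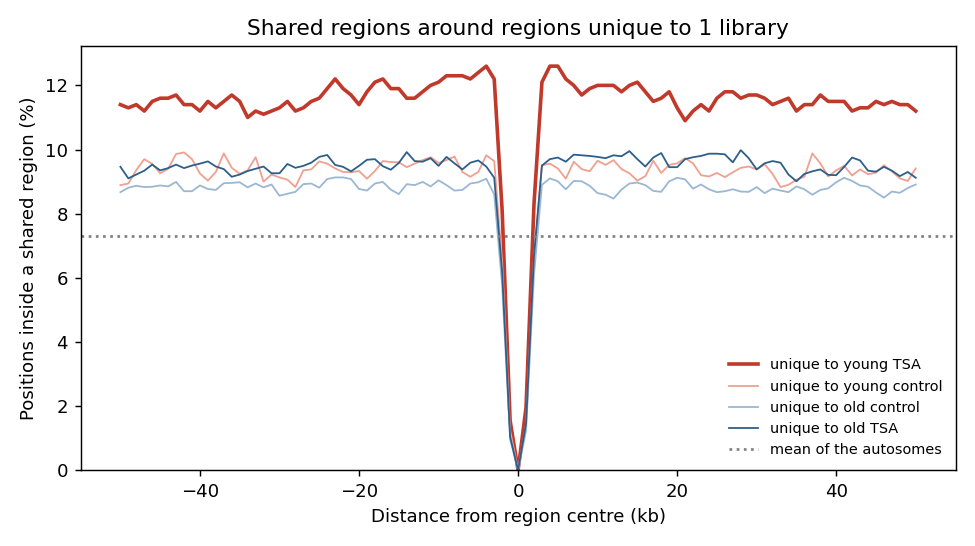
Distance from the region centre (kb, x axis) against the percent of positions that lay inside a shared region (y axis), for the regions called in 1 library only; the dotted line is the mean over the autosomes (7.31%). The line of the young TSA-unique regions runs between 10.9 and 12.6% from 4 kb outward on both sides, and the lines of the other 3 sets between 8.47 and 9.98%.

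The regions next in line on either side were mixed much like the list as a whole. Of 36555 flanks, 38.8% were merged regions called in 2 or 3 libraries, and so were 38.8% of all autosomal merged regions. A merged region between 2 young TSA-unique regions was counted once for each, and the intervals do not allow for such repeats. Regions called in all 4 libraries made up 9.88% of the flanks (9.57 to 10.2%) and 8.95% of all regions. Other young TSA-unique regions made up 12.0% of the flanks (11.7 to 12.4%) and 11.1% of all regions, and regions unique to old control 18.7% and 20.0%. Both flanks were shared regions for 4505 of 18275 young TSA-unique regions (24.7%), 1 flank for 8782 (48.1%) and neither for 4988 (27.3%). Among all 163967 autosomal merged regions, 78346 were shared, and the same counts were not made for the other sets. The nearest shared region was called in young TSA for 76.5% of the young TSA-unique regions (75.8 to 77.1%), and 76.0% of all shared regions were called there.

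Windows of 1 Mb with more shared regions held more young TSA-unique regions. Over 2412 windows that held any merged region, Pearson's r was 0.773 and Spearman's rho 0.801. The corresponding r was 0.407 for regions unique to young control, 0.516 for old control and 0.615 for old TSA. With the regions called in all 4 libraries, r was 0.721 for the young TSA set and 0.372, 0.374 and 0.468 for the others. With shared regions not called in young TSA, r was 0.471 for the young TSA set, 0.272 for young control, 0.532 for old control and 0.564 for old TSA. These are descriptions across windows of the same libraries, and windows differ in mappability, base composition and enzyme sites, none of which was measured.

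In the 603 windows with the fewest shared regions (0 to 14), the mean was 2.93 young TSA-unique regions per window, and in the 603 windows with the most (46 to 138) it was 13.3, a ratio of 4.55. For the regions unique to young control the ratio was 2.39, for old control 1.80 and for old TSA 2.23. The fullest windows held 44.0% of the young TSA-unique regions, against 33.2%, 31.5% and 34.3% of the regions unique to young control, old control and old TSA. The windows were ranked by all 78346 shared regions, of which 59507 were called in young TSA. A ranking without those was not made.

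**Figure D4:**
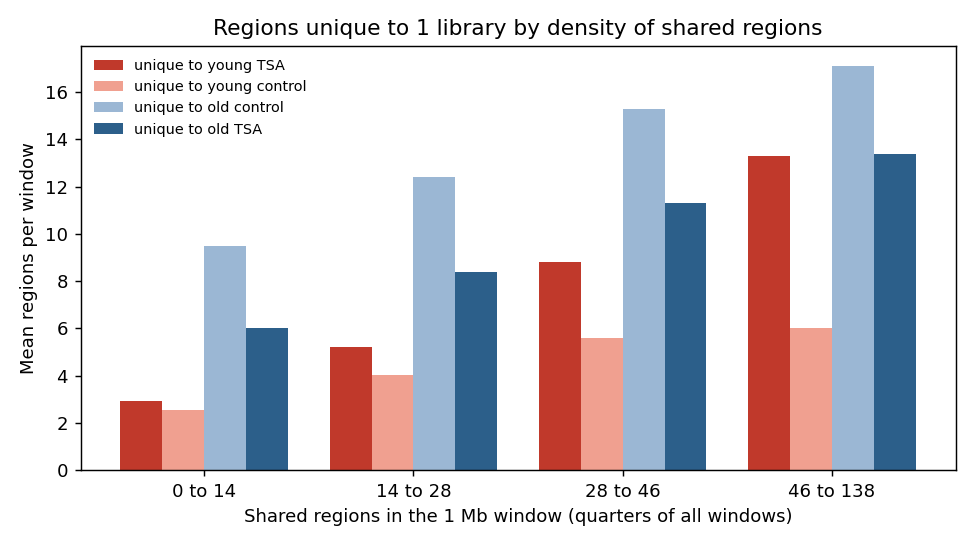
Windows of 1 Mb in 4 groups of 603 by their number of shared regions (x axis) against the mean number of regions called in 1 library only per window (y axis). Bars of young TSA rise from 2.93 in the emptiest to 13.3 in the fullest windows, and those of young control from 2.53 to 6.04. The shared regions include those called in young TSA.

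By chromosome, the density of young TSA-unique regions ran from 6.20 per Mb on chromosome 14 to 10.1 per Mb on chromosome 11. As a share of all regions called in young TSA it was more even, from 21.6% (20.5 to 22.7%) on chromosome 4 to 26.1% (24.1 to 28.1%) on chromosome 19. Across the 19 autosomes their density moved with that of shared regions, with r of 0.836 and rho of 0.828. Median widths lay between 1200 bp on chromosomes 12 and 16 and 1400 bp on chromosomes 9, 11 and 17.

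The windows with the most young TSA-unique regions were also rich in shared ones. The window of chromosome 10 from 80 to 81 Mb held 31, beside 138 shared regions, the highest number of shared regions in any window. It held 4 regions unique to young control, 18 to old control and 11 to old TSA. The window of chromosome 7 from 106 to 107 Mb held 29, beside 60 shared regions, and that of chromosome 8 from 124 to 125 Mb held 29, beside 121. The median window held 6, and 66 windows (2.74%) held none.

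Young TSA-unique regions stood denser around each other than over the autosomes, though most had none of their kind within 10 kb. The median distance to the nearest region of the same kind was 31900 bp (31100 to 32700 bp). For 63.7% (63.0 to 64.4%) another lay within 50 kb, and for 21.8% within 10 kb. The set unique to old TSA, which is larger, gave 66.8% and 21.0%, the larger old control set 77.0% and 27.3%, and the smaller young control set 44.1% and 12.4%. Per Mb within 50 kb, the young TSA-unique regions stood at 1.48 times their own autosomal mean, against 1.32, 1.09 and 1.16 times for the sets of young control, old control and old TSA.

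Joined across gaps of up to 10 kb, 14303 of the young TSA-unique regions stood alone, and the others formed 1582 pairs, 215 groups of 3 and 42 groups of 4, with no larger group. The groups of 4 were spread over 14 chromosomes and were 8800 to 32400 bp long. The tightest of them, chosen after its values were seen, ran on chromosome 6 from 70789601 to 70798400. Its 4 regions were 1200, 1100, 1200 and 1400 bp wide. Shared regions lay beyond it on both sides, the nearest on the right, from 70801001 to 70803700, being missing from young control only. On its left, from 70787901 to 70789200, lay a region called in old control only.

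Few regions stood far from any other call. The median distance to the nearest merged region of any kind was 3000 bp, 87 regions (0.476%) lay over 50 kb from all others, and 8 lay over 100 kb away. The most isolated, on chromosome 12 from 22660201 to 22661500, was 1300 bp wide and 533000 bp from the next region, which was called in both old libraries. The second, on chromosome 14 from 53966501 to 53967600, lay 285900 bp from any other region. The third, on chromosome 13 from 68288701 to 68289900, lay 222400 bp away. The region on chromosome 13 from 66484201 to 66486100, 1900 bp wide, lay 217500 bp from any other. The last of the 5, on chromosome 14 from 8319801 to 8321200, lay 192100 bp away. The authors' list of regions higher in young TSA than in young control overlapped 4.87% of all young TSA-unique regions. None of these 5 was in that list, and 5 regions are too few to set against this share.

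That list, called the young gained list here, comes from the same contrast as the rule, so its overlap is a description and supports nothing. It overlapped 890 of the 18280 young TSA-unique regions (4.87%, 4.56 to 5.19%), against 10.5% of all autosomal merged regions called in young TSA. The share was 6.52% for regions shared with 1 other library, 15.0% with 2 and 16.1% with 3. Among the 10114 regions found with the lists limited to their median width and above, the share was 12.2%, against 18.1% of all regions called in young TSA under that limit. From the other side, 889 of the 8298 autosomal regions of the list (10.7%) overlapped a young TSA-unique region. In the other sets called in 1 library, the share in the differential list of the same library was 2.62% for young control (1.07% of all its regions), 6.37% for old control (4.49%) and 6.10% for old TSA (4.08%).

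The overlap with the gained list followed width. It was 1.01% (0.723 to 1.37%) at 1000 bp, 1.56% at 1100 to 1400 bp, 4.44% at 1500 to 1800 bp, 13.6% (12.5 to 14.7%) at 1900 bp, 19.9% (16.2 to 24.1%) at 2000 to 2900 bp and 21.7% (14.3 to 30.8%) from 3000 bp. At the single width of 1000 bp the share was 0.903% (0.247 to 2.30%) in regions of young TSA shared with 1 other library, with an interval that held the value of the young TSA-unique regions. At 1900 bp it was 13.6% in young TSA-unique regions. In regions of young TSA it was 8.22% (7.64 to 8.83%) when shared with 1 other library, 11.8% (11.1 to 12.5%) with 2 and 8.17% (7.25 to 9.17%) with 3. Nothing is read from this order, because the rule bars young control calls and the list is taken over young control. The width of a shared region is also that of the merged region, so its young TSA part can be narrower. Among the 890 regions in the list the median width was 1900 bp and 66.1% reached 1900 bp, against 1300 bp and 20.1% among the other 17390. Of the 890, 233 (26.2%) were covered whole by the list and 172 were identical to a listed region, and the median cover was 78.6% of the region.

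Young TSA-unique regions of 2000 to 2900 bp lay closer to shared ones than the narrowest did. The median distance was 7500 bp at 1000 bp, 7000 bp at 1100 to 1400 bp and 6000 bp both at 1500 to 1800 bp and at 1900 bp. It was 4000 bp (3300 to 4900 bp) at 2000 to 2900 bp and 4650 bp (3000 to 6500 bp) from 3000 bp. A wider region extends farther to both sides, which by itself shortens an edge-to-edge distance. How much of the difference between these medians this makes up was not tested. The regions in the gained list lay 5450 bp (4800 to 6100 bp) from a shared region at the median, against 6600 bp (6500 to 6900 bp) for the others. Of the 1182 regions over 50 kb from any shared region, 16.0% (13.9 to 18.2%) reached 1900 bp and 4.48% (3.38 to 5.82%) were in the gained list. Of the 2397 within 1 kb, these shares were 24.9% (23.2 to 26.7%) and 6.05% (5.13 to 7.08%).

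**Figure D5:**
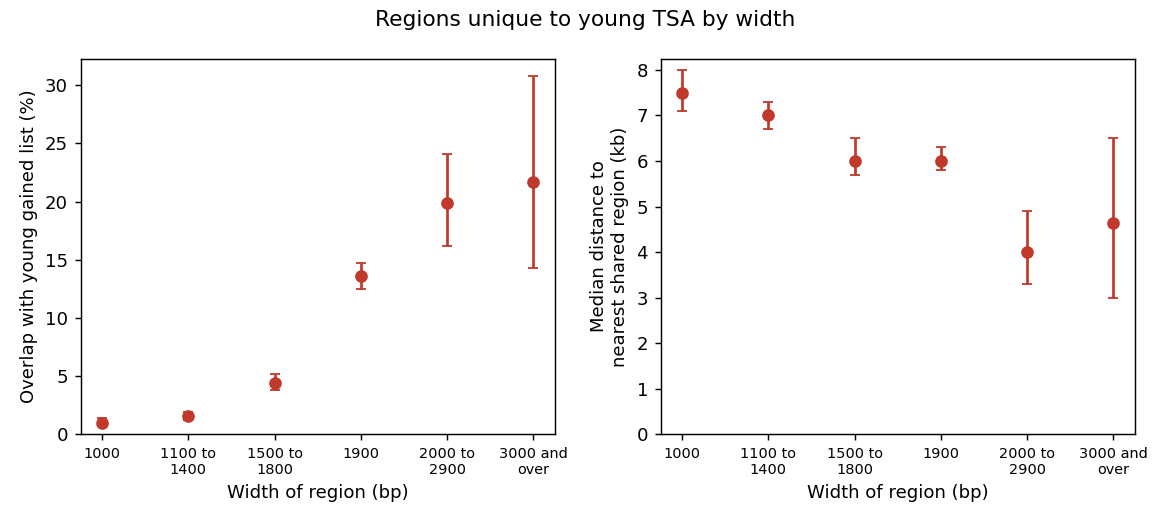
Young TSA-unique regions by width (bp, x axes). The left panel gives the percent that overlapped the young gained list and the right panel the median distance to the nearest shared region (kb), with 95% intervals; the overlap is 1.01% at 1000 bp and 21.7% from 3000 bp, and the distance is 7500 bp at 1000 bp, 4000 bp at 2000 to 2900 bp and 4650 bp from 3000 bp.

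Young TSA-unique regions in the gained list and the others had a gained shared region as nearest neighbour at shares whose intervals overlapped. The nearest shared region was in the gained list for 10.4% (8.52 to 12.6%) of the 890 regions and for 9.11% (8.69 to 9.55%) of the rest, and 9.33% of all shared regions were in the list.

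The 5 widest young TSA-unique regions lay 100 to 7900 bp from a shared region, on both sides of the median of 6600 bp for the whole set. The widest, 4800 bp on chromosome 14 from 26582601 to 26587400, lay 400 bp from a region called in all 4 libraries. The next, 4600 bp on chromosome 2 from 179853001 to 179857600, lay 100 bp from another such region, itself reaching from 179848401 to 179852900. Also on chromosome 2, from 173911001 to 173915300, a region of 4300 bp lay 7900 bp from a region called in all libraries but old control. On chromosome 6, from 125103501 to 125107400, a region of 3900 bp lay 800 bp from a region with the same calls. These 4 were not in the gained list, while the remaining region of the 5 widest, given next, was. Among all young TSA-unique regions from 3000 bp the share in the list was 21.7% (14.3 to 30.8%).

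The widest region that was in the list, 3900 bp on chromosome 2 from 33355201 to 33359100, was also among the 5 widest of all. The list covered 1900 bp of it, and it lay 7600 bp from a region called in young TSA and old control. On chromosome 8 a region of 3800 bp ran from 124623701 to 124627500. Chromosome 9 held a region of 3800 bp from 121333001 to 121336800 and one of 3600 bp from 62368401 to 62372000. The fifth, of 3700 bp, ran on chromosome 15 from 62117901 to 62121600. The list covered 1300 bp of the region on chromosome 8 and 1900 bp of each of the other 3. Their nearest shared regions, 2600 to 6800 bp away, were called in all 4 libraries, except that beside the first of the chromosome 9 regions, which was missing from old control. Genes and sequence at these positions are not analysed here.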

How the data were processed

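NA-seq was applied to 4 samples of sorted FAPs, grouped by their titles. Bowtie 0.12.7 and build mm9 were used, per the submitters' processing notes. The sources used here do not state how regions were called, at which threshold, or how the differential lists were tested. Deposited were 8 lists by the authors, with a chromosome, start and end per region and no other value. Starts and ends are multiples of 100 bp, the shortest library region is 1000 bp, and starts are printed counting from 1.

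Lists were read in Python 3.11.15 (pandas 2.3.3, numpy 2.4.6; intervals from scipy 1.17.1) and plotted with matplotlib 3.10.9. Library regions with a gap of 0 bp or an overlap were merged. Distances run from edge to edge, and densities use the 2412 Mb between the lowest start and highest end called on each autosome. Overlap with a differential list means at least 1 bp. The functions were tested on simulated lists against brute force. The members and measures were chosen with earlier results of these data known. The regions named are the 5 widest, the 5 widest in the gained list, the 5 most isolated and the 3 fullest windows. No genome or gene annotation of mm9 was used, so the planned analysis of genes and enzyme sites was not run.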

Additional observations from a re-analysis of the deposited data

Results flagged for a closer look

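TSA and control stood in opposite order at the 2 ages in 3 measures of the regions called in 1 library only, and these differences were not tested because each group has 1 library. The number of such regions was 18280 in young TSA and 10977 in young control, but 23577 in old TSA and 32787 in old control. The share of 1900 bp or wider was 22.3% in young TSA and 14.9% in young control, but 21.2% in old TSA and 27.2% in old control. The share in the differential list of the same library was 4.87% in young TSA and 2.62% in young control, but 6.10% in old TSA and 6.37% in old control, where the intervals (5.80 to 6.41% and 6.11 to 6.64%) overlapped. Over all autosomal regions of each library the shares were 10.5%, 1.07%, 4.08% and 4.49% in the same order, so that young TSA alone stood below the share of its whole library. Nothing is read from this, because each list compares libraries whose calls the rule used. Shared regions of young TSA were also wider, and among young TSA-unique regions the overlap with the list followed width. The lengths of the whole lists stood in the same order as the counts, and their part in these values was not tested. Median distances to shared regions were lower in the TSA set than in the control set at both ages. They were 6600 and 8700 bp in young, and 8700 and 9600 bp in old. On chromosomes 11 and 19, though, the old TSA median was the higher, with 7900 against 7800 bp and 11400 against 9800 bp. Of the shared regions, 59507 were called in young TSA and 31182 in young control.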

How the results depend on the processing

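Of 32 recomputed values, 12 kept within their interval (within 1.5 times for the number of regions) and 20 moved. With a reciprocal overlap of 50%, the median distance to a shared region was 6000 bp, the share within 10 kb 63.4%, the share in the gained list 5.61% and the share with another within 50 kb 71.3%. With regions up to 500 bp apart merged, the distance was 7300 bp and the shares within 10 kb and within 50 kb were 59.3% and 58.4%. With each list limited to its own median width and above, the rule gave 10114 regions, with a median width of 1900 bp, a distance of 10300 bp and shares of 49.4% within 10 kb, 12.2% in the gained list and 51.5% within 50 kb. Under the last 2 settings the young TSA set still had the lowest median distance of the 4 sets (next lowest 9400 and 14800 bp). Both settings keep young TSA calls among the shared regions. Measured to regions called in all 4 libraries, the distance was 41900 bp and the share within 10 kb 20.7%. Measured to shared regions called in young TSA, they were 8600 bp and 54.0%. Measured to those not called in young TSA, chosen after seeing the data, they were 37400 bp and 18.1%. On that measure old TSA had 37500 bp and 18.5%, old control 39300 bp and 17.6%, and young control 41900 bp and 16.6%. Another young TSA-unique region lay within 10 kb for 21.8% of the young TSA set. Fewer regions to measure to lengthen a distance by construction. No paired analysis was possible because each group has 1 library, and for the same reason no replicate could be left out. Depth is unknown, so the sensitivity of each list could not be weighed.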
